A study of Mus musculus with 18 samples.

Results

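Untreated mouse erythroblasts were compared in 2 ways of counting ribosomes on the same genes: reads at positions held by harringtonine, summed by gene, and footprints of cycloheximide-frozen ribosomes on the coding sequence (CDS). The genes described here are the 4538 that have both a kept harringtonine position and a CDS line, out of 20758 genes with either. No measured value other than the presence of a kept position chose them. Kept positions carried 4613 gene names and CDS lines 20683, and 4520 of the 4538 genes passed the filter on low counts and were tested.

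The cells were erythroblasts from fetal livers of Trp53 -/- mice, strain FVB/n x C57BL/6, grown in StemPro medium with erythropoietin at 0.5 U/ml, stem cell factor supernatant at 1% and dexamethasone at 1 nM. The deletion of Trp53 and this medium were shared by every library. The 3 cycloheximide libraries had 100 ug/ml for 5 min and the 3 harringtonine libraries 2 ug/ml for a time that the sources used here do not give. Total RNA in 3 untreated libraries gave a common scale, and 3 libraries of each footprint kind from cells given tunicamycin, 2.5 ug/ml for 1.5 h, served as a second set of measurements. The labels do not say whether replicates were separate cultures or animals, so each p-value covers no more than the spread among these libraries, which may be technical.

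The 4538 genes held 5.06 to 5.27 M CDS footprints per library but only 0.442 to 0.518 M harringtonine reads, so the start-site counts set the precision. Between libraries of 1 kind, the Pearson r of log2 counts across genes was 0.990 to 0.994 for CDS footprints and 0.920 to 0.932 for harringtonine reads, a description across genes that are not independent. No pair of libraries was identical. In RNA, 10 of 10 erythroid markers exceeded 5 CPM (counts scaled to 1 M), with a summed level of 5690 to 6030. Macrophage, neutrophil, hepatocyte and endothelial markers had 0 genes above that level. Megakaryocyte and mast cell lists had 1 each, Gp5 and Ms4a2, with list sums of 113 to 119 and 105 to 169. Trp53 itself kept reads in every untreated library, 84, 92 and 118 at harringtonine positions, 277, 223 and 291 in the CDS and 3322, 6060 and 1516 in RNA. The labels do not say which part of the gene was deleted, so these reads do not check the genotype.

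Harringtonine stops the ribosome as it leaves the start codon, while ribosomes already in the reading frame run off, so reads gather at initiation sites. Cycloheximide freezes elongating ribosomes wherever they are, so footprints spread along the whole reading frame and their number grows with coding length as well as with ribosome traffic. A gene's ratio of the 2 counts therefore reflects initiation, elongation, coding length and how each read was assigned, and these cannot be told apart here. Coding lengths were not used here, so every ratio below, those against RNA included, is per gene and not per codon. Start-site reads below means all harringtonine reads at the kept positions of a gene, wherever in the gene these lie.

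The sequences give a partial view of what a kept position marks. For 294 of the 4538 genes the position with the most untreated reads lay within the RefSeq promoter window of the same gene, 250 bases before to 50 after its start (build GRCm38.p6), with enough bases left to look for a start triplet. An ATG began 12 bases 3′ of that position in 34 genes and 13 bases 3′ in 62, together 96 genes or 32.7%. The other distances from 25 bases 5′ to 25 bases 3′ had a median of 2 genes and at most 14, and 1.29% of all 32851 windows carry an ATG at a fixed place 12 bases past the start. Smaller peaks at 1, 4 and 7 bases held 14 genes each and the peak at 10 bases held 10. At 0, 3, 6 and 9 bases there were 11, 7, 4 and 7 genes, and at 2, 5, 8 and 11 bases 2, 2, 1 and 1. The match is a description of letters and not a mapped initiation event.

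**Figure D1:**
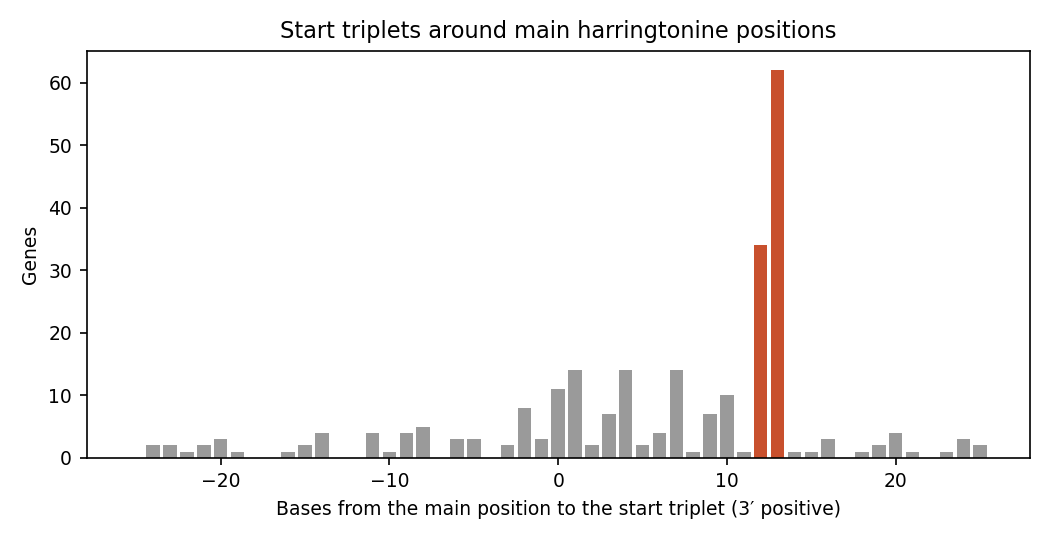
Number of genes (vertical axis) with an ATG at each distance in bases from the main harringtonine position (horizontal axis, 3′ positive), among 294 genes whose main position lies in their own promoter window. The 2 coloured bars, 34 genes at 12 bases and 62 at 13, stand above every other distance, where the highest count was 14.

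Printed here are 8 of these 96 positions, chosen after the values were seen: the 4 with the highest and the 4 with the lowest ratio, to show what such a position looks like. All 8 have the triplet at 12 or 13 bases because they were drawn from genes that do. Each line gives 30 genomic bases from the position onward, 5′ to 3′ on the gene's strand, with the ATG in capitals.
0610009B22Rik, chr11:51688597-51688626, minus strand: ttgagtgtgtgtgATGgccggctgacctgc
Ccdc86, chr19:10949217-10949246, minus strand: ctacacgtgagccATGgatacgccgctgag
Znrd1, chr17:36958442-36958471, minus strand: tacgtcggacctaATGaggttccccagcag
Eif3g, chr9:20898546-20898575, minus strand: taagacttcgagATGccgactggcgacttt
Rhag, chr17:40811163-40811192, plus strand: ctctgctgcagtcATGaggttcaaattccc
Eif3f, chr7:108934420-108934449, plus strand: tttctcggcaagATGgcttctccggccgta
Ddx56, chr11:6267703-6267732, minus strand: gtggagtcacgccATGgaggaccaagaagc
Psmc1, chr12:100110196-100110225, plus strand: ggactgaaggaagATGgtgagtgactaagg
The first 4 had log2 differences, harringtonine minus CDS, from 2.89 to 3.35 and the last 4 from -1.97 to -1.65. Eif3g and Eif3f, subunits of the same initiation factor eIF3, fell in opposite groups, with 8422 harringtonine reads to 20239 footprints for Eif3g and 407 to 24605 for Eif3f. Over all genes in these windows the median log2 difference was -0.09 for the 96 with the triplet at 12 or 13 bases and 0.20 for the other 198. Main positions of 4220 of the 4275 tested genes that RefSeq lists under the same symbol fell inside the span of that gene.

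The ratio of start-site reads to coding footprints varied widely among genes. On the log2 scale, with trimmed-mean (TMM) scaling that puts the typical gene near 0, the quartiles were -1.40, -0.08 and 1.37. Of the 4520 genes, 1727 or 38.2% were higher in harringtonine reads and 1814 or 40.1% higher in CDS footprints at an adjusted p under 0.05 (edgeR quasi-likelihood test, Benjamini-Hochberg adjustment). With a log2 size of at least 1 as well, the rule used for every call below, 1378 or 30.5% were higher in harringtonine reads, 1430 or 31.6% were higher in CDS footprints and 1712 were neither. The 3 harringtonine and 3 CDS values did not overlap in 1349 of the first class and 1425 of the second, and in 3589 of all 4520 tested genes. The centre of this scale is set by the scaling: with library totals in its place the median fell to -0.80 and the split became 914 and 2063.

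**Figure D2:**
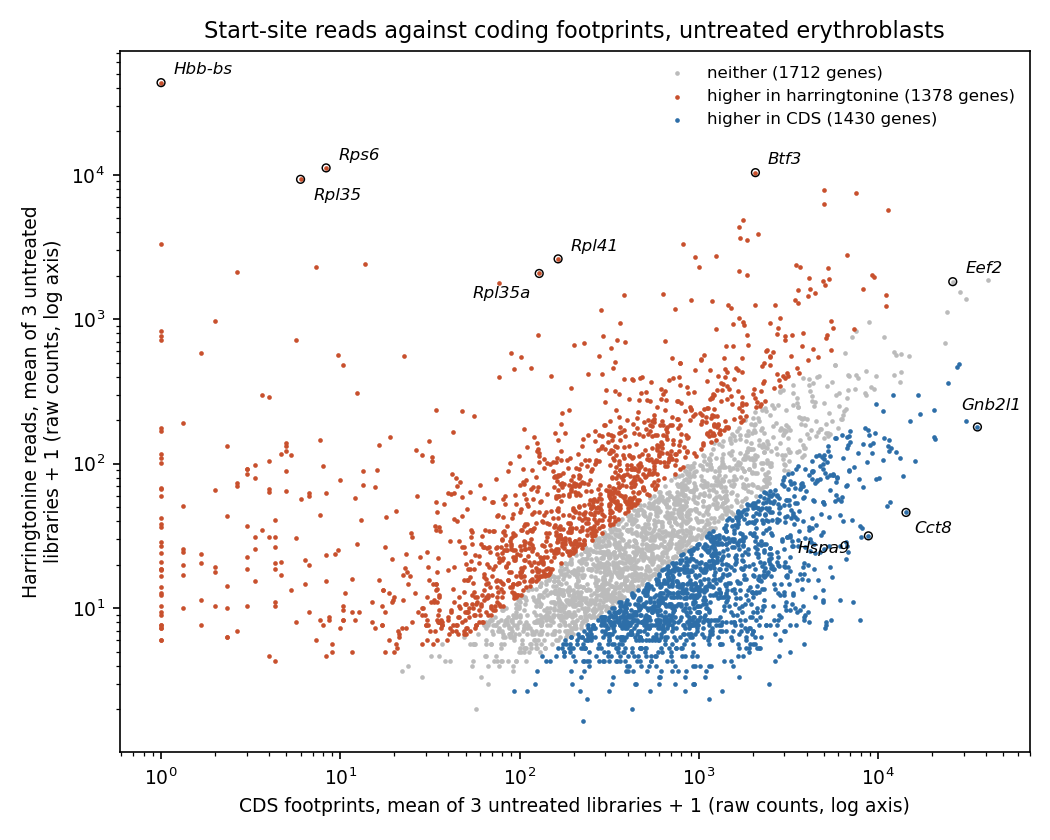
Harringtonine reads (vertical) against CDS footprints (horizontal) for each tested gene, as means of 3 untreated libraries plus 1, raw counts on log axes. Colours mark the 1378 genes higher in harringtonine, the 1430 higher in CDS and the 1712 neither, and genes with 0 footprints stand at the left edge.

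The classes also differed in depth and in number of positions. Genes higher in harringtonine reads had a median of 166 start-site reads and 517.5 footprints over 3 libraries, and genes higher in CDS footprints 34 and 3175. Of the 1430 genes higher in CDS footprints, 1003 had fewer than 60 harringtonine reads, and of the 1378 in the opposite class 489 had fewer than 300 footprints. Only 1 position was kept for 61.7% of the genes higher in CDS footprints and for 40.3% of those higher in harringtonine reads. Among the 2262 genes with at least 60 harringtonine reads and 300 footprints, 845 were higher in harringtonine reads and 427 in CDS footprints, with log2 differences from -4.17 to 8.18. Refitted and rescaled on these 2262 genes alone, the counts were 609 and 647, so the balance between the classes depended on which genes set the scale.

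Of the 2262 genes with at least 60 reads and 300 footprints, the 10 with the highest ratio were Rpl35a, Rpl41, Tuba1c, Rpl23, Btf3, Hist1h3d, Hist1h3a, Mrm1, Ubb and Cox5b; genes with fewer footprints, described further on, lay higher still. Ribosomal protein, tubulin, histone and ubiquitin genes often have near-identical copies in the genome. Counts of such genes are uncertain, since the sources used here do not say how reads matching several copies were counted. Rpl35a, a protein of the large ribosomal subunit, had 2144, 2087 and 1996 harringtonine reads against 104, 152 and 127 CDS footprints, a log2 difference of 8.18 ± 0.25 (SE, n = 3 libraries of each kind; edgeR adjusted p = 6.24e-14). Its start-site counts thus exceeded its coding footprints by far although the harringtonine libraries were the smaller. Rpl41, which encodes one of the shortest proteins known in mammals, had 3077, 2299 and 2482 reads against 184, 145 and 160 footprints (8.15 ± 0.23). Tuba1c, an alpha tubulin, had 731, 821 and 785 reads against 126, 141 and 110 footprints (6.79 ± 0.24). In all 3 genes every harringtonine count exceeded every footprint count even before scaling.

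Btf3, a subunit of the complex that meets nascent chains at the ribosome, combined a high ratio with ample counts on both sides. A single position, chr13:98316874 on the minus strand (mm10), held all of its 10719, 11331 and 9037 reads, against 2343, 1914 and 1944 CDS footprints and 19289, 33850 and 8094 RNA reads. The log2 difference was 6.49 ± 0.22 (SE, n = 3 libraries of each kind; edgeR adjusted p = 1.68e-13). Relative to RNA, on a scale where the median gene is 0, its start-site reads stood at 5.71 and its coding footprints at -0.98, so most of the ratio lay on the harringtonine side.

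Mrm1, a methyltransferase for mitochondrial ribosomal RNA, and Ubb, a polyubiquitin gene, resembled Btf3. Mrm1 had 580, 269 and 527 harringtonine reads, all at 1 position, and 95, 97 and 152 footprints (6.13 ± 0.29), with start-site reads at 6.08 and footprints at -0.25 against RNA. Ubb had 1208, 1543 and 1689 reads and 355, 345 and 448 footprints (6.12 ± 0.25), at 6.10 and -0.22 against RNA. Rpl23 went the other way: its 554, 501 and 590 reads and 78, 118 and 106 footprints gave 6.60 ± 0.24, of which 0.86 was the start-site side and -5.94 the coding side. Cox5b, a subunit of cytochrome c oxidase, had 686, 622 and 692 reads and 212, 155 and 236 footprints (5.89 ± 0.23), with values of 2.87 and -3.21 against RNA. A high ratio thus came with many start-site reads for the RNA in some genes and with few coding footprints for the RNA in others.

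Among the lowest ratios of the same 2262 genes were chaperone, RNA-modifying and replication genes with many coding footprints and few harringtonine reads at kept positions. Cct8, a subunit of the chaperonin that folds actin and tubulin, had 70, 35 and 30 harringtonine reads against 14817, 14441 and 13672 footprints, a log2 difference of -4.17 ± 0.25 (SE, n = 3 libraries of each kind; edgeR adjusted p = 2.05e-10). Its reads were spread over 4 kept positions on chr16, and the main one, at 87484006 on the minus strand, held 30, 13 and 15 of them. That position lies 3′ of the others, at 87487539, 87487698 and 87488861, and whether it is an initiation site was not tested. Relative to RNA its footprints stood at 1.48 and its start-site reads at -2.49, so both sides contributed.

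Nsun2, an RNA cytosine methyltransferase, had 21, 23 and 19 reads against 7519, 6298 and 5972 footprints (-4.14 ± 0.23). Hspa9, the mitochondrial Hsp70, had 50, 28 and 14 reads against 9012, 9665 and 7798 footprints (-4.03 ± 0.29). Stip1, the co-chaperone that joins Hsp70 to Hsp90, had 24, 30 and 16 reads against 6824, 6905 and 6643 footprints (-4.02 ± 0.24). Relative to RNA these 3 genes had start-site reads at -3.49, -3.22 and -2.55 and footprints at 0.45, 0.60 and 1.28. The larger part of each difference was thus on the side of the harringtonine reads, summed over all kept positions. The main positions of Nsun2 and Stip1 lay 3′ of their other kept positions, and that of Hspa9 lay between its others. Whether these are initiation sites was not tested.

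Pdcd4, an inhibitor of the helicase eIF4A, had the most footprints for its RNA among the 10 lowest of these genes, apart from a histone gene with very few RNA reads. It had 34, 25 and 19 reads against 7682, 6896 and 5595 footprints (-3.87 ± 0.24), with footprints at 2.26 and start-site reads at -1.41 against RNA. Cpox, the haem pathway enzyme coproporphyrinogen oxidase, had 28, 24 and 26 reads against 6351, 5849 and 6130 footprints (-3.72 ± 0.21), and here footprints were not high for the RNA, at -0.41, while start-site reads stood at -3.93. The splicing factor gene Hnrnpl (-3.92 ± 0.30), the helicase gene Mcm6 (-3.77 ± 0.24), the linker histone gene Hist1h1b (-3.72 ± 0.23) and Calr, an ER lectin chaperone (-3.67 ± 0.21), completed the 10 lowest of the 2262 genes with at least 60 reads and 300 footprints. No harringtonine library overlapped any CDS library in these 10 genes or in the 10 highest after scaling. These genes were chosen for the size of their difference, so this is a description. Of all 4520 tested genes, 3589 had no overlap.

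**Figure D3:**
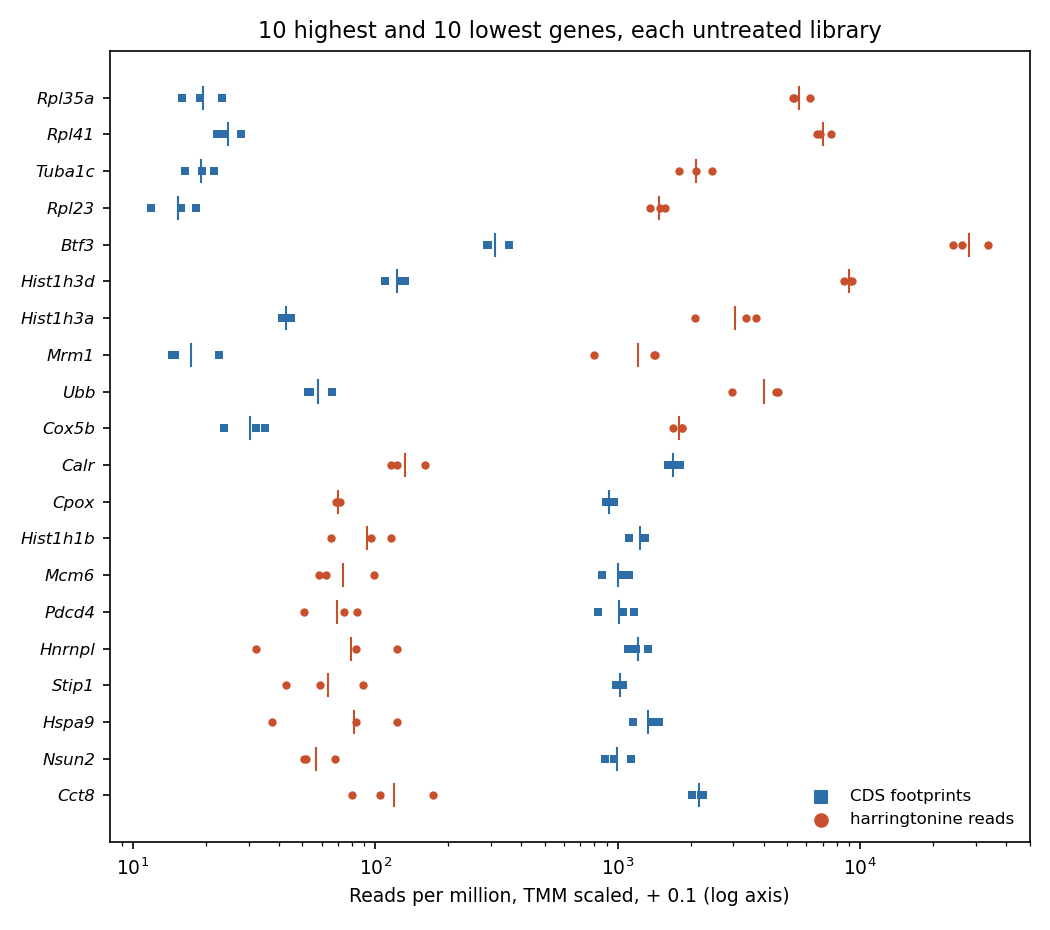
Scaled CPM (log axis, 0.1 added) in each of the 3 harringtonine and 3 CDS libraries for the 10 highest and 10 lowest genes with at least 60 reads and 300 footprints; bars are means. For the upper 10 genes all harringtonine points lie to the right of all CDS points, and for the lower 10 to the left. The genes were chosen by this difference, so the separation is a description.

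Across classes the RNA libraries showed the same 2 sides. Genes higher in harringtonine reads had median start-site reads of 1.70 and median footprints of -0.79 against RNA, and genes higher in CDS footprints -1.58 and 0.51. Start-site reads were at least 2-fold above the RNA scale in 930 of the 1378 genes of the first class and at least 2-fold below it in 972 of the 1430 of the second. Over all 4520 tested genes, 1276 were that far above it and 1308 that far below. The classes were called on harringtonine reads against footprints, which itself moves these values apart, so they are a description. CDS footprints were at least 8-fold below RNA in 204 tested genes, of which 184 were in the first class, 19 in neither and 1 in the second. RefSeq lists a pseudogene named as a copy of the gene (symbol with -ps) for 125 genes of the first class (9.07%), 38 of those in neither (2.22%) and 33 of the second (2.31%). In the first class 80 of these 125 were among the genes with footprints at least 8-fold below RNA. The part that shared reads play in these ratios was not tested.

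Ribosomal protein genes split into 2 groups. Their counts of calls are to be read against all genes, with 30.5% higher in harringtonine reads and 31.6% in CDS footprints. Of 43 tested genes for the large subunit, 35 were higher in harringtonine reads and 5 in CDS footprints, with a median log2 difference of 6.45 against -0.08 over all genes; for the small subunit the counts were 24 and 6 of 33 and the median 2.91. Footprints were at least 8-fold below RNA for 34 of the 43 large-subunit genes, with a median difference of 7.17. The other 9 had a median of -1.09 and ranged from -2.36 to 2.75. Footprints are the denominator of the ratio, so this split itself moves the medians apart and is a description. Refitted over genes within 8-fold of RNA on either side, the list's median was -0.96, over 7 genes. In the small subunit 19 genes were that far below RNA (median 7.70), and the other 14 had a median of 0.51, from -3.35 to 5.52. The medians of start-site reads against RNA were close for the subunits, -0.94 and -1.10, so the high ratios of the lists went with low coding counts.

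Rps6 and Rpl35, picked after their values were seen, show the extreme. Rps6 had 12190, 8831 and 12507 harringtonine reads, 4, 11 and 7 CDS footprints and 10749, 22626 and 6233 RNA reads. Rpl35 had 12243, 9687 and 6013 reads, 6, 3 and 6 footprints and 14499, 24624 and 7496 RNA reads. Both mRNAs were abundant in start-site and RNA reads, yet the CDS held 22 footprints of Rps6 and 15 of Rpl35 over 3 libraries. The log2 differences were 14.67 ± 0.33 and 14.95 ± 0.40 (SE, n = 3 libraries of each kind). Actg1, a cytoplasmic actin with many pseudogenes, had 2282, 2397 and 1701 reads against 1, 4 and 0 footprints, and Stmn1, a microtubule regulator, 1883, 2825 and 2540 against 15, 10 and 13. These genes too were picked after their values were seen.

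Some ribosomal protein genes had ample footprints. Rps15a, of the small subunit, had 6189, 3024 and 3932 reads at 1 position against 1861, 1723 and 1410 footprints (5.52 ± 0.25). At the other end, Rpl7a had 35, 21 and 13 reads against 2325, 2065 and 1875 footprints (-2.36 ± 0.24) and Rps3a1 had 48, 23 and 13 against 3129, 3040 and 3695 (-2.73 ± 0.28). The low start-site counts of Rpl7a and Rps3a1 stood at -3.82 and -3.87 against RNA, lower than their footprints at -1.66 and -1.33.

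**Figure D4:**
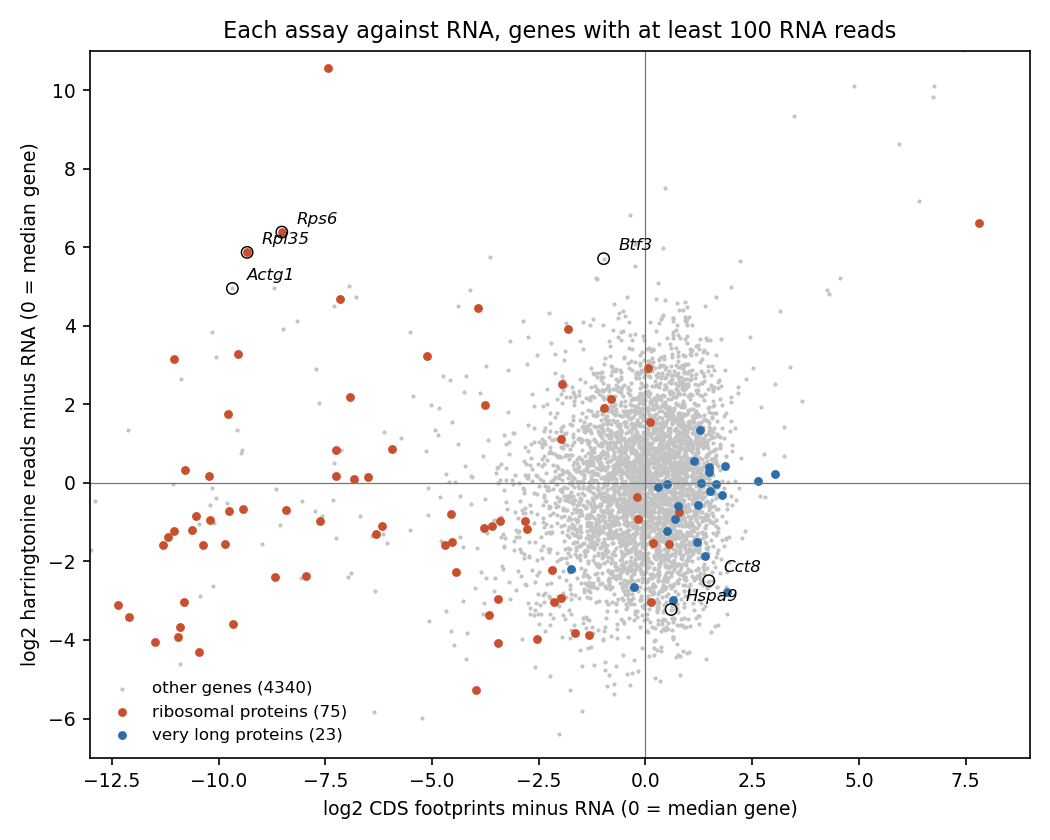
Each tested gene with at least 100 RNA reads by its CDS footprints against RNA (horizontal) and its harringtonine reads against RNA (vertical), both log2 with 0 at the median gene. Inside the axes are 4426 genes, and 12 more lie outside. Ribosomal protein genes spread far to the left at varied heights, and genes for very long proteins lie mostly to the right of 0.

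Globin genes could be described by start-site reads alone. Hbb-bs, the adult beta globin gene, had 42673, 42025 and 45850 harringtonine reads at 1 position, 9.09% of all untreated reads on the 4538 genes, and was listed at 0 in every CDS and RNA library. Hbb-bt had 2784, 2459 and 4649 reads and Hba-a1 had 1048, 520 and 591, again with 0 listed in the other assays. Since erythroblasts make much globin mRNA, these zeros do not measure its translation, and no fold is given. In all, 36 tested genes were listed at 0 footprints, 15 of them also at 0 RNA reads, and they held 151090 harringtonine reads.

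Histone genes, whose replication-dependent members make mRNAs without a poly(A) tail, were mostly higher in start-site reads. The calls were 44 of 55 against 4 higher in CDS footprints, with a median log2 difference of 3.47. Over all genes the shares were 30.5% and 31.6%. All 10 H3 genes were higher in harringtonine reads, as were 11 of 12 H4, 10 of 13 H2A and 11 of 15 H2B genes, but 2 of 5 linker histone H1 genes. Hist1h3d had 3758, 3051 and 3223 reads against 845, 713 and 892 footprints (6.19 ± 0.21), and Hist1h3a 1370, 703 and 1391 at 1 position against 272, 277 and 303 (6.16 ± 0.26). Hist1h1b, a linker histone gene, was the reverse, with 47, 22 and 36 reads against 8465, 7296 and 8720 footprints. The other 3 higher in CDS footprints were Hist1h2ad, Hist1h2ak and Hist1h4a. Copies within each histone family are nearly identical, so the split between single genes is uncertain. RNA reads over 3 libraries were few for these examples, 65 for Hist1h3d and 116 for Hist1h1b, though single histone genes reached 3507, so histones are not placed against RNA here.

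Genes for very long proteins, such as cytoskeletal giants and scaffold subunits, were on the CDS side. Of 23 tested, 18 were higher in CDS footprints and 0 in harringtonine reads, with a median of -1.87 and a range from -4.88 to -0.13. Over all genes the shares were 31.6% and 30.5%. Their footprints had a median of 1.28 against RNA and their start-site reads -0.20. On this scale, where RNA reads were not scaled by length either, the difference lay mainly in the coding counts. Prpf8, the largest protein of the spliceosome core, had 336, 486 and 355 reads over 18 positions against 8674, 7731 and 6826 footprints (-0.13 ± 0.21; edgeR adjusted p = 0.593), the highest value of the list, with libraries that overlapped. Without the second harringtonine library, Prpf8 was at -0.42 (edgeR adjusted p = 0.0391), and with its main position alone at -1.95.

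A list of mostly very short proteins had a median on the opposite side, 1.50. Of 24 tested genes, from a list of 37, 15 were higher in harringtonine reads (30.5% of all genes) and 5 in CDS footprints (31.6%). Footprints were at least 8-fold below RNA for 6 of them (median 8.38), and the other 18 had a median of 1.02. The part of coding length was not tested. Footprints stood at a median of -1.10 and start-site reads at 0.32 against RNA. Values ranged from -2.47 to 11.73, the highest being Stmn1. The lowest was Ube2c, a ubiquitin-conjugating enzyme of mitosis, with 19, 18 and 28 reads against 1978, 2072 and 2369 footprints (-2.47 ± 0.21). The 17 Sm, LSm and small splicing proteins had a median of 1.91, with 10 higher in harringtonine reads and 2 in CDS footprints. Snrpb, a core Sm protein, had 1626, 1463 and 990 reads against 3538, 3371 and 3358 footprints (2.83 ± 0.21), and Srsf7, a splicing regulator, 67, 33 and 71 against 2963, 2786 and 2630 (-1.47 ± 0.21).

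Chaperone, tRNA synthetase and proteasome genes had medians on the CDS side and more calls there than in harringtonine reads, where all genes had 31.6% and 30.5%. Of 20 genes for the cytosolic chaperonin and heat shock chaperones, 13 were higher in CDS footprints and 3 in harringtonine reads, with a median of -2.01. Dnaja1, an Hsp40, was the highest with 427, 1152 and 498 reads at 1 position against 367, 378 and 418 footprints (5.04 ± 0.37). In the ER list 11 of 17 were higher in CDS footprints and 2 in harringtonine reads (median -1.57). Hspa5, the ER Hsp70 known as BiP, had 145, 129 and 163 reads against 10788, 11498 and 12317 footprints, a log2 difference of -2.15 ± 0.18 (edgeR adjusted p = 1.36e-08). Its footprints stood at 1.84 against RNA and its start-site reads at -0.12. Derl1, of the ER degradation machinery, went the other way with 256, 423 and 261 reads against 898, 886 and 1032 footprints (2.60 ± 0.24).

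Among 19 cytosolic tRNA synthetases 10 were higher in CDS footprints and 2 in harringtonine reads (median -1.86), with medians of 1.02 for footprints and 0.01 for start-site reads against RNA. Vars, for valine, had 18, 30 and 21 reads against 4787, 4174 and 4288 footprints (-3.42 ± 0.24), and Nars, for asparagine, 722, 868 and 975 against 7557, 7507 and 6873 (1.07 ± 0.19). Nars was at 0.34 (edgeR adjusted p = 0.0941) with library totals, 0.56 over the 2262 genes with enough reads, 0.93 over positions with at least 20 untreated reads, and 0.96 and 0.98 without harringtonine library 2 or 3, so its call ended in each. Summed over 3 libraries, Vars had 69 start-site reads and Nars 2565, at 13249 and 21937 footprints. Of 28 proteasome genes 15 were higher in CDS footprints (31.6% of all genes were) and 2 in harringtonine reads (30.5% of all genes), with a median of -1.37. Psmd6, a lid subunit, had 71, 23 and 32 reads against 5671, 4994 and 5218 footprints (-2.85 ± 0.26), and Psma3, a core subunit, 540, 694 and 436 against 304, 218 and 306 (5.19 ± 0.26).

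**Figure D5:**
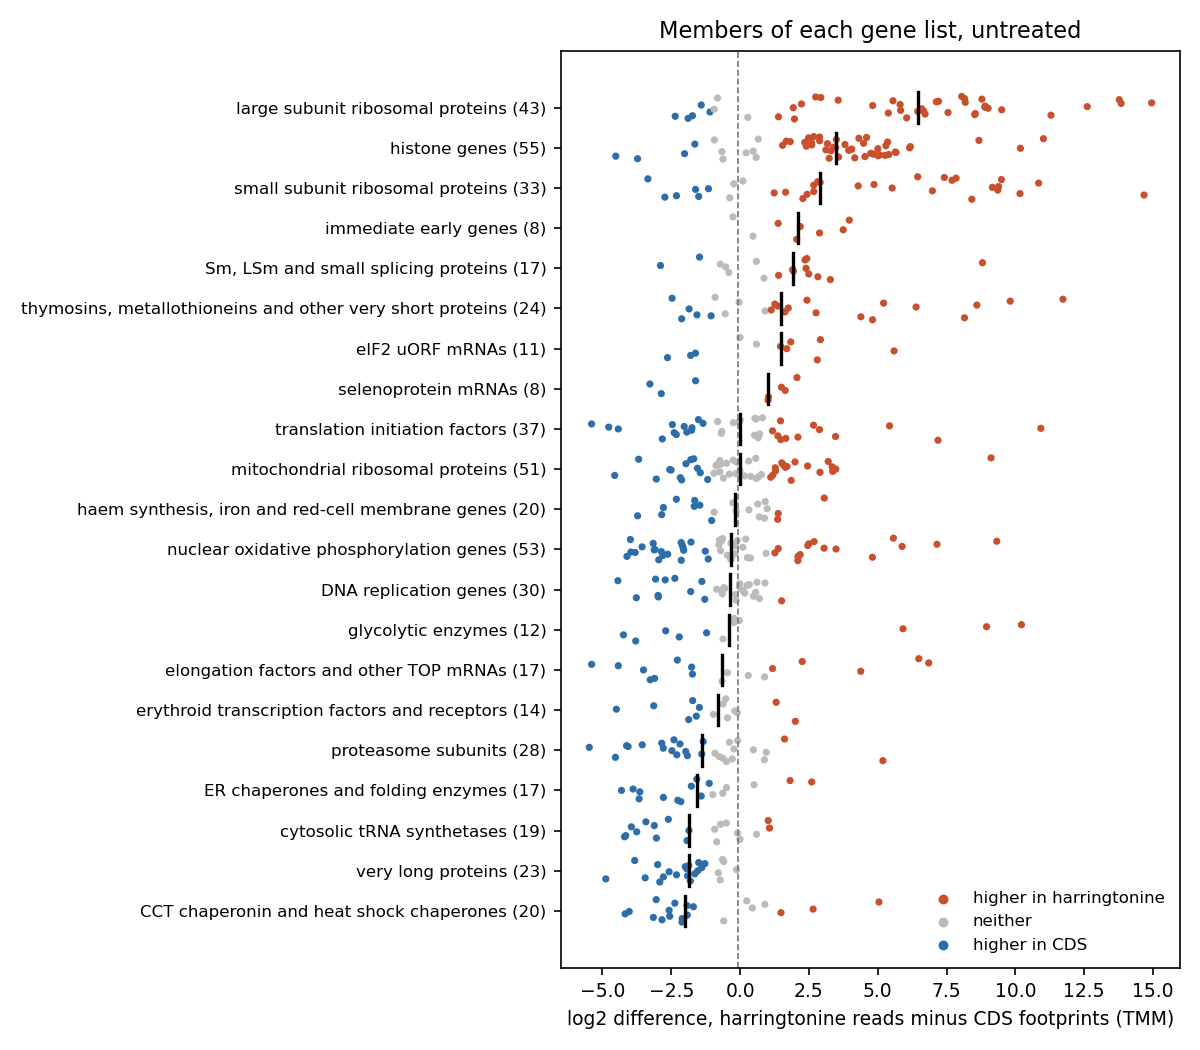
Log2 difference of harringtonine reads minus CDS footprints (horizontal) for every tested gene of each list, with the number of genes in brackets; black bars are list medians, the dashed line is the median of all genes, and genes with 0 footprints are drawn at their lower bound. Ribosomal protein and histone lists lie to the right, and chaperone, synthetase and very long protein lists to the left, each with members on the opposite side except for the very long proteins.

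A list of genes with upstream open reading frames (uORFs), only some of which respond to eIF2 phosphorylation, had 11 tested members of 19. Of these 11 genes, 6 were higher in harringtonine reads and 3 in CDS footprints (median 1.47), where all genes had 30.5% and 31.6%. Such short frames in the leader can hold ribosomes of their own, and harringtonine reads of a gene here include any kept position in its leader. Atf4, the stress transcription factor whose leader carries uORFs, had 171, 245 and 160 reads against 490, 482 and 515 footprints, a log2 difference of 2.81 ± 0.21 (edgeR adjusted p = 2.44e-09). Its reads lay at 3 positions of chr15 on the plus strand: 108, 178 and 111 at 80255668, 32, 58 and 29 at 80255669, and 31, 9 and 20 at 80256234. The first pair is 1 base apart and held most of the reads in every library, and the third lies further 3′. Relative to RNA the start-site reads of Atf4 were at 0.19 and its footprints at -2.81.

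Pnrc2, a factor of nonsense-mediated decay and decapping, was the highest of the uORF list, with 358, 378 and 478 reads against 154, 145 and 150 CDS footprints (5.59 ± 0.22), and had 2472 footprints in its leader, more than in its CDS. Ifrd1 had 6, 6 and 16 reads against 610, 592 and 528 footprints (-1.80 ± 0.30). Eprs, the synthetase for glutamate and proline, had 249, 595 and 385 reads over 11 positions against 8186, 7725 and 6665 footprints, with a log2 difference of -0.0046 ± 0.27, overlapping libraries and a value of -0.50 (edgeR adjusted p = 0.043) without the second harringtonine library. With its main position alone Eprs was at -1.63 (edgeR adjusted p = 0.00505). Ddit3 and Ppp1r15a had 103 and 277 CDS footprints and no kept position.

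Erythroid genes were called in both directions, as were all genes (30.5% higher in harringtonine reads and 31.6% in CDS footprints). Of 14 transcription factors and receptors, 2 were higher in harringtonine reads and 6 in CDS footprints (median -0.79), and of 20 haem, iron and membrane genes 3 and 8 (median -0.20). Gata1, the master erythroid transcription factor, had 882, 436 and 459 reads against 2843, 2465 and 2418 footprints, a log2 difference of 2.01 ± 0.22 (edgeR adjusted p = 3.29e-07). Its reads lay on chrX, minus strand, at 7967820 and the base beside it. Epor, the erythropoietin receptor, was also higher, with 154, 95 and 114 against 907, 792 and 887 (1.31 ± 0.17; 0.59 with library totals, 0.79 over the 2262 genes and 0.93 with the main position alone, where the size rule was missed). Kit, the stem cell factor receptor, was lower, with 120, 122 and 82 reads over 7 positions against 7069, 5990 and 6055 footprints (-1.72 ± 0.21), and so was Klf1, an erythroid transcription factor, with 54, 65 and 39 against 3188, 3171 and 3978 (-1.87 ± 0.22).

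Of the red-cell genes, Ermap, a membrane protein of the butyrophilin family, was the highest with 704, 668 and 600 reads at 1 position against 1447, 1363 and 1418 footprints (3.06 ± 0.18). Slc4a1, the band 3 anion exchanger, had 291, 320 and 324 reads against 2879, 3004 and 2589 footprints (0.98 ± 0.18; edgeR adjusted p = 9.66e-05), just under the size rule, and 0.26 (edgeR adjusted p = 0.169) with library totals. Tfrc, the transferrin receptor, had 649, 667 and 736 at 1 position against 24099, 24757 and 21609 (-0.94 ± 0.17), and Alas2, the first enzyme of erythroid haem synthesis, 41, 39 and 56 against 1444, 1804 and 1705 (-1.03 ± 0.19). Alas2 fell under the size rule in 8 alternatives, at -0.87 to -0.99, among them those without harringtonine library 1 or without CDS library 2 or 3. Cpox, described above, was the lowest.

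Translation initiation factors had shares of calls near those of all genes (30.5% and 31.6%): of 37, 12 were higher in harringtonine reads and 13 in CDS footprints (median 0.01). Eif2s2, the beta subunit of eIF2, had 181, 238 and 170 reads against 282, 376 and 298 footprints (3.47 ± 0.21), and Eif4a3, of the exon junction complex, 33, 20 and 18 against 2360, 2213 and 2350 (-2.46 ± 0.21). Of 17 elongation factor and other mRNAs with a 5′ terminal pyrimidine tract (TOP mRNAs) 5 and 8 were called (median -0.66, range -5.39 to 6.85). Among those with at least 60 reads and 300 footprints Btf3 was the highest, and Gnb2l1, the ribosomal scaffold RACK1, the lowest, with 258, 152 and 126 reads over 9 positions against 35762, 35207 and 36472 footprints (-3.51 ± 0.23).

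Eef2 and Eef1a1 had ratios within the size rule. Eef2, which moves the ribosome along the mRNA, had 2365, 1441 and 1658 reads against 28301, 26119 and 23817 footprints (0.30 ± 0.18; edgeR adjusted p = 0.136), a value that was -0.42 under library totals. Eef1a1, which brings in aminoacyl-tRNA, had 490, 180 and 254 against 8504, 8477 and 8334 (-0.66 ± 0.24; edgeR adjusted p = 0.0196). The adjusted p of Eef1a1 passed 0.05 when any CDS library or harringtonine library 2 or 3 was left out (edgeR, 0.0764 to 0.0822), and also with DESeq2 (0.0792), leader footprints added (edgeR, 0.0573), the main position alone (edgeR, 0.263) and genes within 8-fold of RNA only (edgeR, 0.0536). With library totals it was at -1.38. Pabpc1, the poly(A)-binding protein, had 183, 179 and 125 over 11 positions against 11552, 10157 and 7111 (-1.73 ± 0.23). Against RNA, the start-site reads of Eef1a1 and Pabpc1 stood at -2.81 and -2.32.

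Mitochondrial and metabolic lists had medians near that of all genes, and their counts of calls are likewise to be read against 30.5% and 31.6% of all genes. The 53 oxidative phosphorylation genes had 16 higher in harringtonine reads and 20 in CDS footprints (median -0.34, range -4.11 to 9.32). With at least 60 reads and 300 footprints Cox5b was the highest and Atp5a1, of the ATP synthase, the lowest, with 260, 161 and 166 reads over 13 positions against 32392, 31392 and 28428 footprints (-3.15 ± 0.20). The 51 mitochondrial ribosomal proteins had 18 and 13, with Mrpl42 at 3.48 ± 0.18 and Mrps28 at -1.79 ± 0.21. The 30 replication genes had 1 and 10 (median -0.36), the 1 being Mcm2 with 362, 284 and 472 reads against 2595, 2208 and 2164 footprints (1.51 ± 0.20; 0.79 with library totals), a partner of Mcm6 in the same helicase. The 12 glycolytic enzymes had 3 and 5 (median -0.42), with Ldha at -0.02 ± 0.17 and Aldoa at -2.70 ± 0.21. Ldha was at -0.75 (edgeR adjusted p = 0.000605) with library totals.

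Among immediate early genes only 8 of 21 were tested, since the rest had no kept position. Of these 8, 6 were higher in harringtonine reads and 0 in CDS footprints (median 2.12), where all genes had 30.5% and 31.6%. A gene with few start-site reads could not enter, so the counts do not describe the whole list. Btg1, an antiproliferative gene, had 111, 45 and 119 reads at 1 position against 100, 105 and 104 footprints (3.97 ± 0.24), and Myc 1083, 500 and 744 against 5473, 4814 and 5320 (1.38 ± 0.21; 0.66 with library totals and 0.87 over the 2262 genes with enough reads). Selenoprotein mRNAs decode UGA as selenocysteine. Of the 8 tested, from a list of 15, 5 were higher in harringtonine reads (30.5% of all genes) and 3 in CDS footprints (31.6%). Msrb1, a methionine sulfoxide reductase, was at 2.07 ± 0.20. Gpx1, a glutathione peroxidase, had 950, 1219 and 1566 reads against 9741, 9993 and 13547 footprints (1.02 ± 0.22), a call that ended under library totals (0.28), under 5 other settings and without harringtonine library 2 (0.94) or 3 (0.83).

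The ratio fell with RNA level, and the way positions were kept bears on that relation. Every kept position had at least 20 reads over 3 libraries of 1 treatment, so a gene with little RNA entered only where its start-site reads were many. With at least 100 and under 1000 RNA reads over 3 libraries, 8.39% of genes had a kept position, and these had a median log2 difference of 2.05. With at least 3000 and under 10000 reads 50.5% had one (median -0.12), and with 30000 or more 92.2% (median -0.55). Across 4520 genes the log2 difference and log2 RNA reads had a Pearson r of -0.37 and a Spearman rank correlation of -0.30, given as a description: genes share libraries and the floor on positions shapes the points.

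Kl, which encodes the hormone co-receptor klotho and was picked after its values were seen, had 3001, 4182 and 3596 CDS footprints and 30, 13 and 35 harringtonine reads with only 1, 0 and 0 RNA reads. The footprints and start-site reads listed for it thus had almost no RNA beside them.

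The reverse extreme is a gene with many coding footprints and no kept position. Of 6679 genes with at least 300 CDS footprints, 3917 had a kept position and 2712 had none under any name that RefSeq lists for them. The 6 with the most footprints were Eif3i (6124, 5337 and 5496), Eftud2, a spliceosome GTPase (5509, 4951 and 4826), Arhgdia (4351, 4580 and 5249), Gtpbp4, Hprt and Wdr43. Eif3i, a subunit of eIF3 like Eif3g above, summed to 16957 footprints. For these genes only that no position reached the floor is known, not that initiation was absent.

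Cells given tunicamycin gave the comparison a second set of 6 libraries. There 1321 or 29.2% of 4519 genes were higher in harringtonine reads and 1434 or 31.7% in CDS footprints. Of the 1378 and 1430 genes called in untreated cells, 1225 and 1286 were called the same way under tunicamycin and 0 the opposite way. The ratio differed between treatments for 1 of 4534 genes, 0.0221%, at an edgeR adjusted p under 0.05. That gene was Atf4, whose log2 difference was 2.81 untreated and 0.85 ± 0.18 under tunicamycin, an interaction of -1.94 ± 0.29 (edgeR adjusted p = 0.0221).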

How the data were processed

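Per the submitters' processing notes, STAR, HTSeq and edgeR were used with builds mm10 and GRCm38; the sources used here give no versions, roles, strand settings or rule for multiply mapped reads. The authors deposited raw counts: CDS, leader and RNA counts by gene, and harringtonine counts at single positions, of which each kept one had at least 20 reads summed over 3 libraries of 1 treatment. Untreated position counts were summed by gene and tested against CDS counts with edgeR 4.0.16 in R 4.3.3 (TMM, filterByExpr with a minimum count of 10 and total of 15, quasi-likelihood test, Benjamini-Hochberg). Calls needed an adjusted p under 0.05 and a log2 size of at least 1. The test was tried on simulated counts in which few genes differed, unlike here, so that trial does not bear on how these data were centred.

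Genes were named by rule: the 10 highest and 10 lowest with at least 60 harringtonine reads and 300 footprints, the highest and lowest of each list, the 6 most covered genes with no position, and 15 preset genes. One gene that this rule names is not reported here. The members, the lists and the rule were chosen with earlier results of these data known. The planned per-codon comparison was not run, since coding lengths were not used here. Promoter windows and symbols came from RefSeq GRCm38.p6, where 3535 of 4520 genes matched a window. Intervals and errors cover these libraries only.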

Additional observations from a re-analysis of the deposited data

Results flagged for a closer look

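The ratio of harringtonine reads to CDS footprints of Atf4 changed between treatments, by -1.94 ± 0.29 on the log2 scale (edgeR interaction test, adjusted p = 0.0221), the only 1 of 4534 genes past the threshold. A further 75 gene names at kept positions had no CDS line, and held 15551 untreated harringtonine reads, 1.07% of all. Of these names 69 are RefSeq synonyms of 1 gene with a CDS line under a newer symbol, such as 0610009D07Rik for Sf3b6 with 5730 reads and H2-Ke2 for Pfdn6 with 1744.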

How the results depend on the processing

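No paired analysis was possible because the harringtonine columns carry no number tied to 1 sample; the per-codon comparison was not run. Genes higher in harringtonine reads and in CDS footprints numbered 1378 and 1430 as reported. Library totals gave 914 and 2063, and testing only genes with 60 reads and 300 footprints gave 609 and 647 of 2262. Leaving out 1 library gave 1295 to 1345 and 1370 to 1465. The other alternatives (DESeq2 or its size factors, voom, no filter, main position only, positions with at least 20 untreated reads, leader footprints added) lay between 1192 and 1454 and between 1251 and 1443. Added after seeing the data, keeping only genes with footprints within 8-fold of RNA gave 1242 and 1327, and leaving out ribosomal protein, histone and globin genes 1290 and 1385. With the 8-fold limit the median of the large-subunit list reversed to -0.96, over 7 genes.

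Over 17 alternatives, 1155 of 1204 values of 73 named genes kept their direction and their side of an adjusted p of 0.05, 13 passed above it, 12 fell below it and 24 reversed. By the full rule, which adds the log2 size of at least 1, 66 genes were called, 28 values of 6 genes (Nars, Gpx1, Mcm2, Myc, Epor and Alas2) lost the call and 17 values of 5 genes (Slc4a1, Tfrc, Eef1a1, Eprs and Prpf8) gained it; of 338 list medians, 85 moved and 1 reversed. Reversals were confined to 4 genes near 0 in the main fit. Other settings put Eprs, Ldha and Prpf8 further below 0. With library totals they were at -0.73, -0.75 and -0.85 (edgeR adjusted p = 0.0208, 0.000605 and 0.00123). With the main position only they were at -1.63, -0.91 and -1.95 (edgeR adjusted p = 0.00505, 0.000521 and 4.23e-05). Eprs was 0.0944 with DESeq2 size factors, 0.0968 with DESeq2, 0.119 with leader footprints, 0.129 with the 8-fold limit, 0.0361 without the 3 families, and -0.50 to 0.28 with 1 library left out. Ldha was 0.0776, 0.0774, 0.0856, 0.112 and 0.018 under the same 5 and -0.0817 to 0.10 with 1 library left out. Prpf8 was 0.0074 with the 8-fold limit and -0.42 to 0.042 with 1 library left out. Eef2 was -0.42 with library totals, -0.22 with the minimums and -0.65 with the main position only. The cause was not tested.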
